A study of Mus musculus with 64 samples.

Results

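At postnatal week (PWK) 1, mice with the Cyfip2 Arg87Cys knock-in (KI) were compared with wild-type (WT) littermates by bulk RNA sequencing of frontal cortex and hippocampus, and the effect of genotype was fitted over both regions together. The comparison took every week 1 library by its label, 16 of 64 libraries, from 4 KI and 4 WT mice with 1 cortical and 1 hippocampal library each; the remaining 48 libraries came from other mice, killed at PWK 7, 14 and 28. The KI mice carried the Arg87Cys substitution on 1 of their Cyfip2 alleles, all mice were on the C57BL/6N background, and tissue was dissected from both hemispheres in the afternoon. The line models a human variant behind West syndrome, an epilepsy of infancy, and shows spasms as pups, a seizure-free period and recurrent seizures as adults, so that PWK 1 lies before the adult seizures and close to the spasms. Both sexes were used in the study, and the sex of each mouse was not given in the labels. A library number within 1 genotype was taken as 1 mouse, which the labels did not state in words.

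CYFIP2 is a subunit of the WAVE regulatory complex, which sits inactive until the GTPase Rac1 binds it and then switches on the Arp2/3 complex, the nucleator of branched actin networks. The pool of free actin monomers is in turn read by MRTF coactivators, which enter the nucleus, bind the transcription factor SRF and drive actin and actin-binding genes. A pair of other circuits matters for the genes below. The factor SREBP2 switches on cholesterol synthesis and uptake genes when membranes are short of sterol, and in the young brain nearly all cholesterol is made locally. Unfolded proteins in the endoplasmic reticulum (ER) or stress kinases acting on translation raise chaperones and the factors ATF4 and CHOP.

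Values were DESeq2-normalised read counts, tested with limma on log2(value + 1), so that fold changes of low genes are understated. A gene was called when its Benjamini-Hochberg adjusted p over all genes tested was under 0.05. The joint fit called 1 of 18379 genes (0.00544%), Tgfb1i1. At an unadjusted p under 0.05 lay 1171 genes, 570 of them higher (3.10%) and 601 lower in KI mice (3.27%), and the 4 KI and 4 WT mouse means did not overlap for 309 genes that were higher (1.68%) and 299 that were lower (1.63%). The median gene differed by 0.057 on the log2 scale in either direction, against a median standard error of 0.074. With library totals made equal the joint fit called 12 genes, 33.3% of them higher, and with a correction for GC content and length the share of higher genes at an unadjusted p under 0.05 was 60%, against 48.7% as deposited. Without the mouse as a block 7 genes were called. Below the threshold, 20 genes, Tgfb1i1 included, had an adjusted p under 0.15, 8 higher and 12 lower, and most of the lower ones were sterol genes. None of them but Tgfb1i1 was called. As the tissue was bulk, fewer cells of a type and less RNA per cell cannot be told apart in any of these differences.

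Libraries summed to between 29.2 and 32.3 M normalised counts and were estimated at 25.6 to 37.0 M reads from the spacing of their low values. Tissue markers matched the labels: the mean log2 level of 16 cortical neuron markers was 11.42 to 11.51 in cortex and 10.26 to 10.73 in hippocampus, and that of 16 hippocampal markers 7.65 to 7.90 in cortex and 10.01 to 10.32 in hippocampus. In 2 libraries the markers of another tissue stood apart. The cortical library of WT mouse 1 had a striatal marker level of 9.59, against 7.50 to 7.65 in the other 7 cortical libraries, and the hippocampal library of KI mouse 3 a choroid plexus level of 3.97, against 7.16 to 8.77 in the other 7. Without both libraries the joint fit again called 1 gene. None of 16 marker lists of cell types and neighbouring tissues differed between genotypes over the mice (exact two-sided permutation test, lowest p = 0.2, adjusted p = 0.9143, where 4 against 4 mice can reach 0.0286).

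Promoter sequences are shown for 6 members of the gene groups that follow, because each group has a known response element and these are members in which the letters of one were found. The 250 bases before the start site were read from RefSeq (GRCm38.p6) for 32851 promoters, both strands, and capitals mark the match. The sterol regulatory element was searched as TCACNCCAC (1.05% of all promoters, 1 of 22 sterol genes with a promoter), the ER stress response element as CCAAT and CCACG with 9 bases between them (0.113% of all, 5 of 17 stress genes), the C/EBP-ATF element as TGATGNAA (3.45% of all, 4 of 17 stress genes) and the CArG box, the site of SRF, by name (1.47% of all, 10 of 34 actin and SRF genes). Hmgcs1 (chr13:119690101-119690350, plus strand) is the sterol gene with a match, Hspa5 (chr2:34771840-34772089, plus strand) and Pdia6 (chr12:17266339-17266588, plus strand) carry the ER stress element, Herpud1 (chr8:94386179-94386428, plus strand) the C/EBP-ATF element, and Actg1 (chr11:120348496-120348745, minus strand) and Cnn2 (chr10:79988350-79988599, plus strand) the CArG box. The letters were not particular to the list named beside them in every case: the sterol element was also found in 3 of 34 actin and SRF genes and 1 of 17 stress genes, both larger shares than among the sterol genes, and the C/EBP-ATF element in 3 of 22 sterol genes. The ER stress element and the CArG box were found in none of the promoters of the other 2 lists. A match is a description of the letters and was not tested as a site.
Hmgcs1: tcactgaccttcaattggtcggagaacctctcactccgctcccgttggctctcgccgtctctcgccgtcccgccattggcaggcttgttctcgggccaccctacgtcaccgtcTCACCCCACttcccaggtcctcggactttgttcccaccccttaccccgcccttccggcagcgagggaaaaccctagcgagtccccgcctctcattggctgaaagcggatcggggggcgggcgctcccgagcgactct
Hspa5: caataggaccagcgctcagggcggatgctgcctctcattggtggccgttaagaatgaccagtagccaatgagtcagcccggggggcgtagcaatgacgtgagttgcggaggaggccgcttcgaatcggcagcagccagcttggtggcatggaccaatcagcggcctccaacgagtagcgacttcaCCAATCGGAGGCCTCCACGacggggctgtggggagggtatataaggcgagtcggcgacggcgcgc
Pdia6: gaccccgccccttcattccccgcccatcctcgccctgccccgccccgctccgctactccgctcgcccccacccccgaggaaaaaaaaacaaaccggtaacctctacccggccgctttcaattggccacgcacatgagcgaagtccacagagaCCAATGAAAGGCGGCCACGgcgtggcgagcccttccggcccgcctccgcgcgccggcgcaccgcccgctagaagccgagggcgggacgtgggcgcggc
Herpud1: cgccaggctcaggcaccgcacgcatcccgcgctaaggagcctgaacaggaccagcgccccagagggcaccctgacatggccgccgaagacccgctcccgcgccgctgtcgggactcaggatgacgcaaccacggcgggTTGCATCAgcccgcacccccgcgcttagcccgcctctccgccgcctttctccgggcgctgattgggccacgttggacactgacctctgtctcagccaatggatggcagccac
Actg1: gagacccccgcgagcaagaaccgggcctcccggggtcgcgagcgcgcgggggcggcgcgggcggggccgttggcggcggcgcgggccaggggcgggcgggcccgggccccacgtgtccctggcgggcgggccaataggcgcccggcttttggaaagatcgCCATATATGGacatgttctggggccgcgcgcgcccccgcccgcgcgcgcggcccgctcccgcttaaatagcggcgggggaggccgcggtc
Cnn2: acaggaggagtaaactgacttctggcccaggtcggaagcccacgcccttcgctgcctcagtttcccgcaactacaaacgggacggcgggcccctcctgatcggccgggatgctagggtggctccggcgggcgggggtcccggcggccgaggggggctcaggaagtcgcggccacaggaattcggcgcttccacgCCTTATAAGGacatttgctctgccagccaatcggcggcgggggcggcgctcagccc

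Cyfip2 itself (chr11:46193850-46312859, minus strand, GRCm38) was measured first, although the knock-in changes a codon and leaves the level no test of the labels. In cortex it stood at 18833, 19428, 19617 and 20143 normalised counts in KI mice 1 to 4 and at 16451, 18394, 19303 and 18298 in WT mice 1 to 4. In hippocampus it stood at 15856, 15311, 16716 and 16023 in KI and at 15160, 14909, 15227 and 15527 in WT mice. Single libraries overlapped in both regions, while the mouse means did not. The log2 fold change (KI over WT, ± standard error) was 0.090 ± 0.032, with an interval of 0.023 to 0.16 that excluded 0, and the gene was not called after adjustment over all 18379 genes (adjusted p = 0.667 in limma's test). The paralogue Cyfip1, which can take the same place in the complex, differed by -0.027 ± 0.035, adjusted p = 0.937, and the subunit Abi1 by 0.13 ± 0.037, adjusted p = 0.551. Of 12 genes of the WAVE complex and Rac1, 7 were higher and 5 lower, 2 had an unadjusted p under 0.05 (Abi1 and Cyfip2, both higher, beside 3.10% of all genes), none was called, and the median of 0.021 lay beside 0.0013 for all genes.

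Tgfb1i1 (chr7:128246812-128255699), which encodes the focal adhesion protein Hic-5, was higher in KI mice in both regions. In cortex KI mice 1 to 4 had 1076, 1286, 1307 and 1335 normalised counts and WT mice 933, 997, 1006 and 1008. In hippocampus the KI values were 874, 883, 902 and 906 and the WT values 608, 676, 643 and 613. No KI library fell within the WT range in either region, and cortex of KI mouse 1 was the KI library nearest to it. The gene rose by 33.2% over both regions (log2 fold change 0.41 ± 0.049, adjusted p = 0.00187 by limma, interval 0.31 to 0.52). In the separate fits it was 0.49 ± 0.052, adjusted p = 0.0226 in hippocampus, a call, and 0.34 ± 0.070, adjusted p = 0.908 in cortex, which was not, and the difference between the regions was 0.15 ± 0.079, adjusted p = 0.98. The joint fit called it after leaving out each of the 8 mice in turn (adjusted p = 6.08e-05 to 0.0325) and in 20 of 22 alternatives in all. The joint call was lost in the mean of the regions per mouse (adjusted p = 0.0592) and in the fit of all 64 libraries (adjusted p = 0.845). The hippocampal call was lost without KI mouse 2, 3 or 4 or WT mouse 1, 3 or 4 (adjusted p = 0.0562 to 0.164). It was also lost with the replicate number as a block (adjusted p = 0.138) and in the fit of all 64 libraries.

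**Figure D1:**
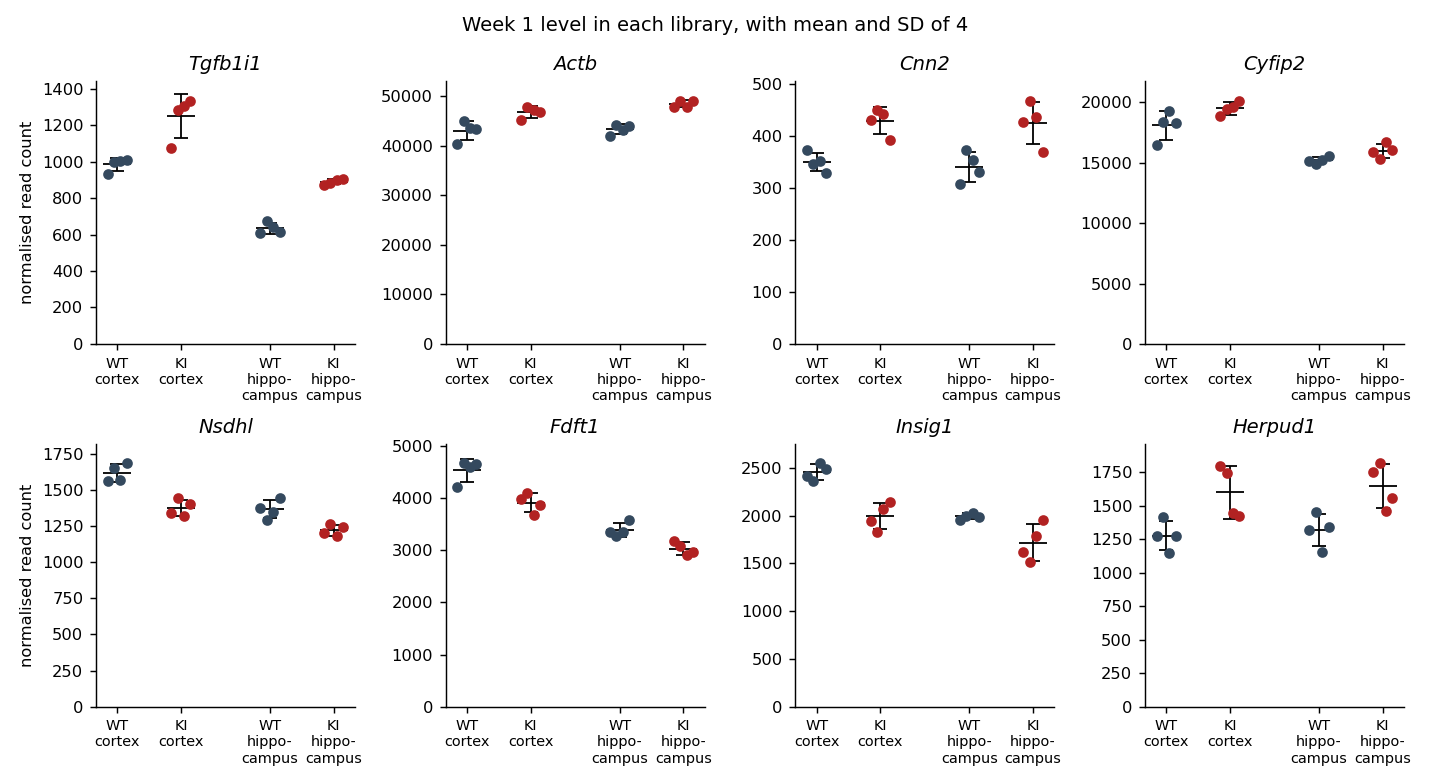
Normalised read count (y axis, from 0) of 8 genes in each of the 16 week 1 libraries, by region and genotype (x axis, WT dark, KI red); horizontal marks are means and bars the SD of 4 mice. Tgfb1i1 lies above WT in every KI library of its region, Nsdhl, Fdft1 and Insig1 lie below it in every KI library, and in Cyfip2 the groups overlap.

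Other actin genes stood higher in KI mice without a call. Actb, cytoplasmic β-actin, was at 45293, 47950, 47290 and 46931 in KI and 40386, 44976, 43599 and 43478 in WT cortex. In hippocampus it was at 47927, 49181, 47831 and 49076 in KI and 41995, 44212, 43313 and 43994 in WT mice, so that all KI values lay above all WT values in each region. The log2 fold change was 0.14 ± 0.027, adjusted p = 0.111. Actg1, the γ-actin gene with the CArG box printed above, ranged over 70668 to 76261 in KI and 62840 to 69634 in WT cortex and over 67547 to 69187 and 57730 to 64815 in hippocampus (0.15 ± 0.033, adjusted p = 0.173). The actins have near-identical copies and many pseudogenes, so the split of reads between them is uncertain. The cortical library of WT mouse 1, high in striatal markers, was the lowest cortical library for Cyfip2, Actb, Actg1 and Tgfb1i1. Without it and the hippocampal library of KI mouse 3 the fold changes were 0.13 for Actb, 0.13 for Actg1, 0.40 for Tgfb1i1 and 0.057 for Cyfip2.

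Cnn2, the actin-binding protein calponin 2 whose CArG box is also printed above, had 431, 449.6, 442 and 392 normalised counts in KI and 373, 346, 351 and 329 in WT cortex, which did not overlap. In hippocampus KI mice had 426, 468, 435 and 369 and WT mice 307, 372, 354 and 329.9, where KI mouse 4 lay among the WT mice (0.30 ± 0.059, adjusted p = 0.118 over both regions). Flna, the actin cross-linker filamin A, differed by 0.32 ± 0.043, adjusted p = 0.0636 in hippocampus, just outside the threshold, by 0.15 ± 0.086, adjusted p = 0.909 in cortex and by 0.24 ± 0.057, adjusted p = 0.303 jointly. Zyx, the adhesion protein zyxin, named after its values were seen, differed by 0.24 ± 0.058, adjusted p = 0.318. Among 41 genes of the actin cytoskeleton and SRF/MRTF targets 26 were higher and 15 lower. At an unadjusted p under 0.05 there were 12 higher (29.3%, against 3.10% of all genes) and no lower members, mouse means did not overlap for 10 higher (all genes 1.68%) and 1 lower, and 1 was called. The median member moved little (0.032). The smooth muscle genes Acta2, Tagln, Cnn1 and Myl9, classic SRF targets named after their values were seen, lay between -0.65 and -0.052 with intervals that included 0. Without the 2 libraries that stood apart they were at 0.166, -0.057, -0.465 and 0.009 in that order. Of 41 genes of actin assembly and turnover, such as Arp2/3 subunits and formins, 32 were higher, none was called and the median was 0.029. At an unadjusted p under 0.05 lay 2 (4.88%, beside 3.10% of all genes), Coro2b (0.092) and Wasl (0.084). Without the cortical library of WT mouse 1 and the hippocampal library of KI mouse 3, 23 of these 41 were higher and the median was 0.005, while the actin and SRF list again had 12 higher members at an unadjusted p under 0.05.

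Cholesterol genes were lower in KI mice, and more of them had a small p-value than of any other list, although as a share of its list the stress response list described further on stood higher, at 14 of 18. Of 30 genes of synthesis and uptake, 26 were lower and 4 higher, 21 were lower at an unadjusted p under 0.05 against 3.27% of all genes, and none was called. The mouse means did not overlap for 14 members, all lower, beside 1.63% of all genes. The median member differed by -0.14 on the log2 scale. The list was chosen with earlier results of these data known, so these counts are a description.

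Insig1, the ER anchor that holds the SREBP factors back and is itself their target, had 1945, 1831, 2066 and 2142 normalised counts in KI mice 1 to 4 and 2411, 2359, 2549 and 2493 in WT cortex. In hippocampus it had 1617, 1515, 1782 and 1952 in KI and 1955, 1999, 2032 and 1982 in WT mice. Its KI values lay below the WT values in both regions, with KI mouse 4 the closest, and the joint difference was -16.5% (-0.26 ± 0.047, adjusted p = 0.0885, interval -0.36 to -0.16).

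Nsdhl, which removes a methyl group from sterol intermediates, had 1343, 1444, 1321 and 1404 in KI and 1564, 1651, 1567 and 1686 in WT cortex, and 1202, 1263, 1180.1 and 1245 in KI and 1376, 1296, 1348 and 1446 in WT hippocampus. Fdft1, squalene synthase, had 3992, 4103, 3683 and 3868 in KI and 4205, 4669.6, 4599 and 4657 in WT cortex, and 3183, 3072, 2906 and 2965 in KI and 3350, 3278, 3353 and 3575 in WT hippocampus. Each KI library of both genes lay below each WT library of its region. The joint difference was -12.7% for Nsdhl (-0.20 ± 0.034, adjusted p = 0.0885) and -12.1% for Fdft1 (-0.19 ± 0.033, adjusted p = 0.0885).

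Other members were lower by similar amounts. The sterol carrier Stard4 differed by -0.27 ± 0.049, adjusted p = 0.101, Idi1, isopentenyl diphosphate isomerase, by -0.20 ± 0.038, adjusted p = 0.117, and the methyl oxidase Msmo1 by -0.23 ± 0.046, adjusted p = 0.124. Sqle, squalene epoxidase, differed by -0.16 ± 0.034, adjusted p = 0.141, and Hmgcs1, with the sterol element printed above and named after its values were seen, by -0.15 ± 0.037, adjusted p = 0.318. Calls of sterol genes depended on the setting. Nsdhl, Stard4, Fdft1 and Insig1 were among those called without the mouse block (adjusted p = 0.045 to 0.0486), which takes the regions of a mouse as independent. With library totals made equal 7 sterol genes were called. Over 22 alternatives Insig1 was called in 4, Nsdhl, Fdft1 and Stard4 in 3 each, and Idi1 and Sqle in 2 each. Msmo1 and Hmgcs1 were called in none. In other alternatives the adjusted p reached 0.623 for Nsdhl and 0.847 for Stard4.

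**Figure D2:**
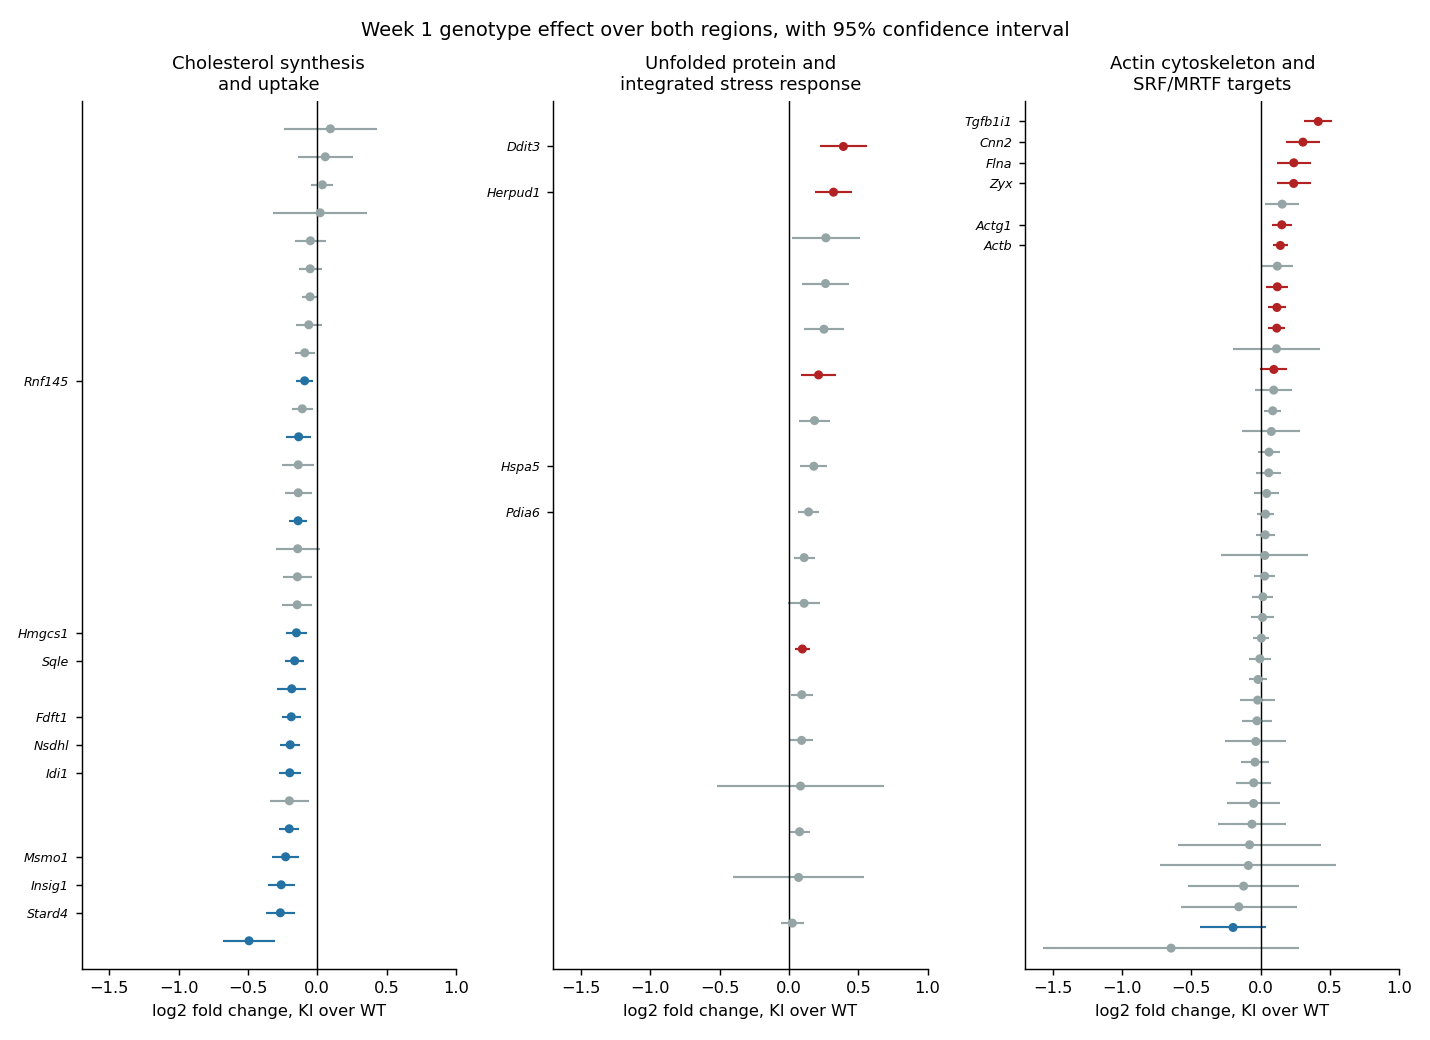
Log2 fold change of KI over WT (x axis) over both regions at week 1 for each tested gene (y axis) of 3 lists; points are limma estimates, bars 95% confidence intervals, red or blue members whose 4 KI and 4 WT mouse means do not overlap (higher or lower), grey the rest; members with values of their own in the text are labelled. Of the sterol members 26 of 30 lie left of 0, all 18 stress response members right of it, and the actin list is split 26 to 15.

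The mean log2 level of the 30 genes separated the genotypes in both regions. It was 10.71 to 10.80 in KI and 10.88 to 10.94 in WT cortex, and 10.47 to 10.50 in KI and 10.56 to 10.62 in WT hippocampus, so that each KI library lay below each WT library of its region. The difference of the means was -0.16 in cortex and -0.11 in hippocampus. By gene, 26 of 30 were lower in both regions, whose libraries were taken to come from the same mice. The fold change was lower in cortex than in hippocampus for 20. For the difference between regions 3 of the 30 had an unadjusted p under 0.05, beside 948 of all 18379 genes, and none was called. The count of lower members at an unadjusted p under 0.05 ran from 14, in the fit of all 64 libraries, to 22 over the alternatives, and was 20 without the 2 libraries that stood apart. No genotype difference in the level of astrocytes, oligodendrocyte precursors or myelin genes was detected beside it (differences of -0.026, 0.002 and 0.18 in mean log2 level, exact permutation p = 0.6, 1 and 0.4857), and the part of cell composition in the sterol values was not tested beyond that.

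Neighbouring lipid genes were less uniform. Of 25 genes of fatty acid synthesis and desaturation, which answer mainly to SREBP1, 18 were lower and 7 higher, 5 lower (all genes 3.27%) and 1 higher (3.10%) had an unadjusted p under 0.05, none was called and the median was -0.028. Scd2, the stearoyl-CoA desaturase of the young brain, differed by -0.12 ± 0.025, adjusted p = 0.141, and its relative Scd1 by -0.18 ± 0.052, adjusted p = 0.551. Of 18 genes of cholesterol efflux and the LXR receptors, which act on surplus sterol, 10 were higher and 8 lower, none had an unadjusted p under 0.05 and the median was 0.013.

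**Figure D3:**
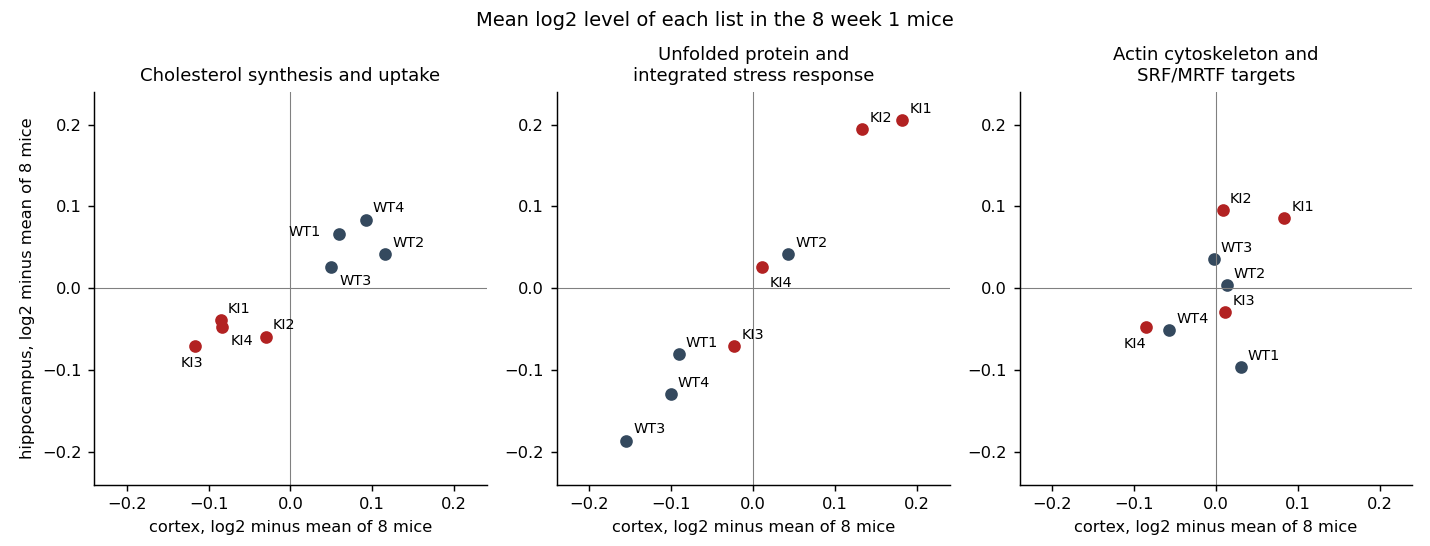
Mean log2 level of 3 gene lists in cortex (x axis) and hippocampus (y axis) of each week 1 mouse, each as the difference from the mean of the 8 mice in that region; WT dark, KI red, labelled by genotype and mouse number. For the sterol list the 4 KI mice lie below and left of the 4 WT mice, for the stress response list KI mice 1 and 2 are highest and WT mouse 3 lowest in both regions, and for the actin list the genotypes overlap.

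ER chaperones and stress genes were higher in KI mice, 18 of 18 on the list. Of these 14 had an unadjusted p under 0.05 against 3.10% of all genes, the mouse means did not overlap for 4 (Ddit3, Herpud1, Sesn2 and Calr) against 1.68%, none was called, and the median was 0.13. Herpud1, which works in the degradation of misfolded ER proteins, had 1799, 1743, 1441 and 1421 normalised counts in KI and 1270.1, 1414, 1148 and 1272 in WT cortex. In hippocampus it had 1752, 1816, 1458 and 1558 in KI and 1320.1, 1451, 1157 and 1343 in WT mice, with all KI libraries above all WT libraries of their region and KI mice 1 and 2 the highest in both. The difference was 0.32 ± 0.064, adjusted p = 0.124, and the fit of all 64 libraries called it (adjusted p = 0.00324). Over 22 alternatives Herpud1 was called in 2, and without 1 mouse its adjusted p ran from 0.0625 to 0.518.

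Ddit3, the gene of CHOP, had 379, 354, 255 and 306 in KI and 251, 252, 209 and 236 in WT cortex, and 388, 326, 303 and 335 in KI and 275, 272, 256 and 253 in WT hippocampus (0.39 ± 0.080, adjusted p = 0.132). All KI values lay above the WT values of their region, although KI mouse 3 came close to them in cortex. The chaperone Hspa5 (BiP) differed by 0.18 ± 0.046, adjusted p = 0.404 and the disulfide isomerase Pdia6 by 0.14 ± 0.037, adjusted p = 0.414, both with the ER stress element printed above. Unlike the sterol genes, the level of the whole list overlapped between genotypes: it was 9.995 to 10.20 in KI and 9.86 to 10.06 in WT cortex, and 10.04 to 10.32 in KI and 9.93 to 10.16 in WT hippocampus. KI mice 1 and 2 were the highest and WT mouse 3 the lowest in both regions, and the median of the list ran from 0.10 without KI mouse 1 to 0.20 without WT mouse 2. Heat shock and hypoxia genes, a related list of 20, were split 10 to 10, with none called and a median of 0.002. At an unadjusted p under 0.05 lay 2 in each direction (Sgk1 and Hsph1 higher, Cdkn1a and Pdk1 lower), beside 3.10% and 3.27% of all genes.

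Other genes with small p-values, none called, were of several kinds. Higher in KI mice were Stmn4, a microtubule-destabilising stathmin (0.20 ± 0.040, adjusted p = 0.132), Fam53c (0.15 ± 0.029, adjusted p = 0.124), Sh2d3c, an adaptor of integrin signalling (0.26 ± 0.054, adjusted p = 0.138), Ppp1r12c, a myosin phosphatase subunit (0.14 ± 0.031, adjusted p = 0.167), Gpr137c (0.21 ± 0.046, adjusted p = 0.169), Galnt17 (0.15 ± 0.033, adjusted p = 0.172) and Ccni (0.10 ± 0.024, adjusted p = 0.238). Also higher was Dusp8, a phosphatase of stress-activated kinases (0.16 ± 0.034, adjusted p = 0.167), of whose list of 18 MAPK phosphatases and feedback regulators 13 were higher and 2 had an unadjusted p under 0.05 (Dusp8 and Spry2, 3.10% of all genes), with a median of 0.060. Without the 2 libraries that stood apart Spry2 differed by 0.048, against 0.098 with them. Lower were Mmp16, a membrane-bound matrix metalloproteinase (-0.26 ± 0.053, adjusted p = 0.124), the unnamed loci Gm42664 (-0.46 ± 0.097, adjusted p = 0.147) and Gm37608 (-0.62 ± 0.14, adjusted p = 0.167), and Pdgfra, the receptor that marks oligodendrocyte precursors (-0.15 ± 0.032, adjusted p = 0.16). Pdgfra ranged over 3662 to 3745 in KI against 3929 to 4439.9 in WT cortex and 4338 to 4929 against 4795 to 5150.2 in hippocampus, while the level of its 16-gene precursor list differed by 0.002 between genotypes. On that list 3 members, Pdgfra, Olig1 and Cspg4, all lower, had an unadjusted p under 0.05, beside 3.27% of all genes. Without the 2 libraries that stood apart these were Pdgfra and Olig1, and 11 of the 16 members were higher.

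Synapse genes were mostly higher by small amounts, less so without the 2 libraries that stood apart. Of 22 synaptic vesicle and release genes 19 were higher, 1 with an unadjusted p under 0.05, the active zone gene Bsn (median 0.036), and of 22 postsynaptic scaffold and signalling genes 17 were higher, 3 with an unadjusted p under 0.05, Camk2b and Git1 among them (median 0.038), beside 3.10% of all genes. The mean log2 level of the vesicle list was 13.28 in the cortical library of WT mouse 1, high in striatal markers, and 13.39 to 13.52 in the other 7 cortices, and that of the postsynaptic list 12.88 against 12.95 to 13.07. In hippocampus the libraries of both genotypes lay among each other on both lists. Without that library and the hippocampal library of KI mouse 3, 13 of 22 genes were higher on either list, with medians of 0.001 and 0.005. The kinase gene Camk2b differed by 0.10 ± 0.033, adjusted p = 0.667, and by 0.067 without both libraries. Of 24 genes of infantile spasms and developmental epilepsies 14 were higher and 10 lower (median 0.012). At an unadjusted p under 0.05 lay 2, Cyfip2 among them, both higher, beside 3.10% of all genes. Without both libraries 11 were higher and 13 lower, with 2 and 3 of them at an unadjusted p under 0.05, beside 2.57% and 3.06% of all genes. Over all libraries channels and receptors centred on 0. Medians were -0.001 for 28 voltage-gated channels linked to epilepsy, -0.003 for 18 ionotropic glutamate receptor subunits and -0.013 for 18 genes of chloride transport and GABA-A receptors. On each list 1 gene, lower, had an unadjusted p under 0.05, beside 3.27% of all genes. These were the calcium channel Cacna1e (-0.16), the kainate receptor subunit Grik3 (-0.11) and the GABA-A subunit Gabrb1 (-0.20). Without both libraries 7 of the 28 channel genes were higher and 21 lower, with a median of -0.023. Of the lower ones 3 had an unadjusted p under 0.05, beside 3.06% of all genes. The medians of the glutamate and GABA lists were then -0.002 and -0.006, with 1 and 2 lower genes at an unadjusted p under 0.05. Among 17 tested genes at and around Cyfip2 on chromosome 11, 10 were higher and 7 lower, with 4 higher (Cyfip2, Lsm11, Adam19 and, named after its value was seen, Clint1) and 1 lower (Rnf145, -0.091) at an unadjusted p under 0.05, beside 3.10% and 3.27% of all genes, and a median of 0.020. Lsm11 had 8834 normalised counts in the cortical library of WT mouse 1 against 12719 to 14079 in the other cortices, and Adam19 2321 against 2669 to 3142. Without both libraries Lsm11 went from 0.16 to 0.077 and Adam19 from 0.11 to 0.055, the latter with an unadjusted p of 0.146. None of the genes of these lists was called.

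Activity and maturity markers showed no called gene either. Of 22 immediate early genes 11 were higher and 11 lower, 3 with an unadjusted p under 0.05, all higher (Jun, Jund and Ier2, beside 3.10% of all genes), and Jun differed by 0.25 ± 0.062, adjusted p = 0.318. The cortical library of WT mouse 1 was the highest cortex on this list, at 9.42 against 9.07 to 9.28. With the 2 libraries that stood apart left out, 14 were higher and 8 lower, and the median went from -0.004 to 0.054. Of the higher ones 4 then had an unadjusted p under 0.05, beside 2.57% of all genes. Immature neuron genes (25, median 0.013) were split 13 to 12, where Neurod1, a factor of newborn granule cells, differed by 0.21 ± 0.077, adjusted p = 0.672. At an unadjusted p under 0.05 lay 2, both higher, beside 3.10% of all genes. Of 25 cell cycle genes 20 were lower (median -0.056), 1 of them, the checkpoint kinase gene Atr (-0.33), at an unadjusted p under 0.05, beside 3.27% of all genes. Of 20 interneuron markers 15 were lower (median -0.10), 3 at an unadjusted p under 0.05 (Sst, Adarb2 and Npy), beside 3.27% of all genes. Sst, somatostatin, differed by -0.14 ± 0.043, adjusted p = 0.551. On both lists the cortical library of WT mouse 1 was the highest cortex, with a cell cycle level of 8.10 against 7.47 to 7.75 in the other 7 and an interneuron level of 9.12 against 8.55 to 8.78. Without it the WT cortices had a mean interneuron level of 8.66, as the KI cortices had (8.66), and a cell cycle level of 7.68 against 7.64, and in hippocampus the KI and WT means were 9.01 and 9.02 for interneurons and 8.09 and 8.06 for the cell cycle. Without that library and the hippocampal library of KI mouse 3, 15 of 25 cell cycle genes were higher (median 0.028) and 11 of 20 interneuron markers lower (median -0.013), 2 of them, Sst (-0.11) and Adarb2 (-0.20), at an unadjusted p under 0.05. The 11 FMRP family and translation partners, which bind CYFIP proteins or the cap complex, were higher in 9 with none at an unadjusted p under 0.05 (median 0.019). Of 29 plexins and semaphorins 20 were higher, 2 at an unadjusted p under 0.05 (Sema4c and Plxnd1, beside 3.10% of all genes), and Plxnd1 differed by 0.21 ± 0.070, adjusted p = 0.667 jointly and by 0.36 ± 0.052, adjusted p = 0.11 in hippocampus. With the 2 libraries that stood apart left out, 17 of the 29 were higher and 12 lower, and the median went from 0.047 to 0.012. Of the higher ones 3 then had an unadjusted p under 0.05, beside 2.57% of all genes.

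Among glial genes and genes of the late disease no difference was detected at this age. Gfap, the astrocyte filament that marks reactive astrocytes, ranged over 2946 to 4106 normalised counts in KI and 3132 to 3531 in WT cortex and over 7836 to 9832 and 7872 to 8534 in hippocampus (0.052 ± 0.066, adjusted p = 0.937). Among 16 astrocyte markers 1 was higher (Aldoc, 0.12) and 2 lower (Aqp4, -0.17, and Slc4a4, -0.10) at an unadjusted p under 0.05 (all genes 3.10% and 3.27%), and among 18 microglia markers none. Of 16 genes tested out of 17 listed for a strong knock-in change at later ages in these data, 8 were higher and 8 lower at week 1, none at an unadjusted p under 0.05. Slc6a5, the neuronal glycine transporter, was low at 30.5, 5.58, 7.77 and 5.51 in KI and 3.38, 9.41, 5.24 and 4.43 in WT hippocampus, where KI mouse 1 stood far above the others (0.48 ± 0.36, adjusted p = 0.888 jointly).

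The regions were then compared. In cortex 1 of 18311 genes was called (0.00546%), in hippocampus 2 of 18361 (0.0109%), and for the difference between the regions 1 of 18379 (0.00544%). Besides Tgfb1i1 the calls fell on low genes that many libraries listed at 0. Gm7367 (chr7:60155609-60156100), a processed pseudogene, stood at 6.47, 16.3, 20.9 and 19.0 in KI cortex and was listed at 0 in all 4 WT cortices (adjusted p = 0.0293). In hippocampus it was present in both genotypes, at 22.0, 52.2, 11.2 and 21.9 in KI and 13.2, 48.4, 42.9 and 55.4 in WT mice, and its interaction was the 1 call between regions (adjusted p = 0.0229). Lenep stood at 45.7, 9.20, 10.9 and 22.9 in KI hippocampus and was listed at 0 in all 4 WT hippocampi (adjusted p = 0.0271), whereas in cortex it was listed at 0 in all 4 KI and in 2 WT libraries and at 20.4 and 23.7 in the others. A pseudogene shares sequence with its parent, so such values are uncertain, and both cortical and interaction calls were lost with a pseudocount of 5.

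**Figure D4:**
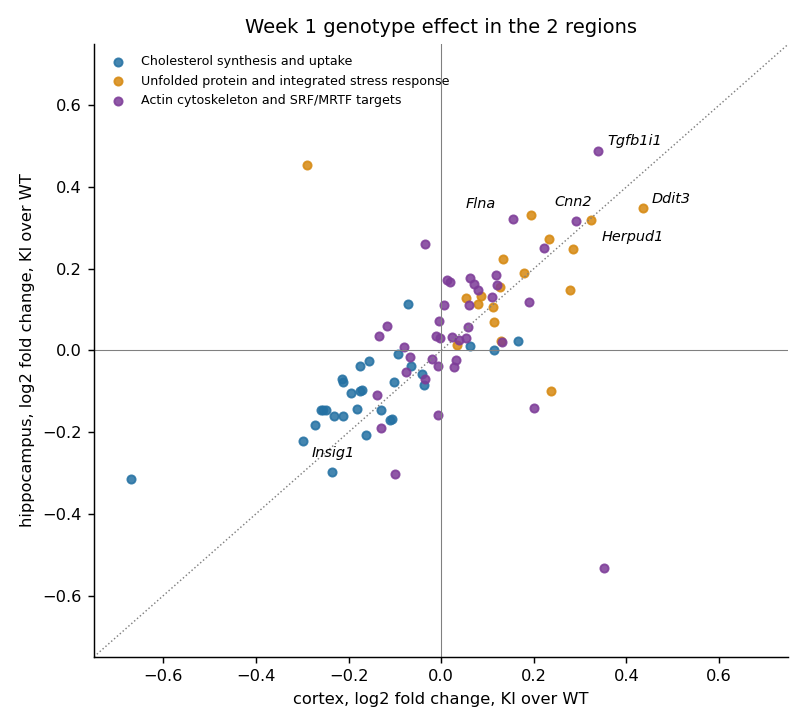
Log2 fold change of KI over WT at week 1 in cortex (x axis) and hippocampus (y axis) for the genes of 3 lists, 1 point a gene; the dotted line marks equal effects, and Cnn1 (-1.48 in cortex, 0.19 in hippocampus) lies outside the axes. Most sterol genes lie in the lower left and most stress genes in the upper right, with Tgfb1i1 farther from 0 in hippocampus (0.49) than in cortex (0.34) and Insig1 below 0 in both (-0.30 and -0.22).

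Mitochondrial transcripts differed in direction from gene to gene. The ATP synthase gene mt-Atp6 was at 13384, 16763, 13153 and 14962 in KI and 10037, 12124, 11082 and 10081 in WT cortex, without overlap, and its fold change was 0.42 in cortex and 0.065 in hippocampus (0.24 ± 0.12, adjusted p = 0.803 jointly). The NADH dehydrogenase genes mt-Nd4l (0.10 ± 0.088, adjusted p = 0.898) and mt-Nd6 (-0.38 ± 0.11, adjusted p = 0.547) were not called, and 10 of 13 mitochondrial genes were lower with a median of -0.030. Nme2 (chr11:93949814-93956259), a nucleoside diphosphate kinase, took 2 separate levels that were shared by both regions of a mouse. In cortex it was at 1264, 2972, 1132 and 1199 in KI and 2441, 2889, 1004 and 2756 in WT mice, and in hippocampus at 1038, 2430.1, 939.5 and 1051 in KI and 2077, 2189, 954 and 2138 in WT mice. KI mouse 2 and WT mice 1, 2 and 4 were high and KI mice 1, 3 and 4 and WT mouse 3 low, which gave -0.48 ± 0.27, adjusted p = 0.845. The gene overlaps the read-through locus Gm20390, at 826 to 1408 in these libraries, so its count is uncertain.

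How the week 1 effects compare with those of the older mice was tested as a difference of joint genotype effects in 1 fit of all 64 libraries, in which each contrast uses the same week 1 libraries. No later age was measured in these mice. Between PWK 1 and PWK 7 no gene was called (0% of 18432, with 566 at an unadjusted p under 0.05 in limma). Between PWK 1 and PWK 14, 3040 genes were called (16.5%), and between PWK 1 and PWK 28, 3663 (19.9%). Tgfb1i1 had fold changes of 0.41 and 0.32 at the first pair of ages and of 1.28 and 1.39 at the last pair, and PWK 14 exceeded PWK 1 by 0.86 (adjusted p = 0.00328). Of the 18379 genes tested at week 1, 1445 were called with a higher and 1586 with a lower effect at PWK 14. At PWK 28 these were 1910 and 1743. Of the actin and SRF list 9 of 41 had a higher effect at PWK 14 and 13 at PWK 28, none a lower one. The list median, 0.032 at PWK 1, went to 0.021, 0.18 and 0.20 at the later ages in order.

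The sterol genes, lower at PWK 1, were mostly higher in KI mice at the late ages. Their median fold change was -0.14 at PWK 1 and -0.070, 0.26 and 0.16 at the later ages in order, with 24, 5 and 7 of 30 below 0 at the last 3 ages. Against PWK 1 the effect was called higher in 20 and lower in 1 of 30 genes at PWK 14, beside 1445 and 1586 of all 18379 genes. At PWK 28 it was higher in 16 and lower in 1, beside 1910 and 1743 of all genes. Insig1 went from -0.26 to 0.43 at PWK 14, a difference of 0.69 (adjusted p = 3.49e-05), and Nsdhl from -0.20 to 0.42, a difference of 0.62 (adjusted p = 1.03e-06). The stress response list was higher in 16 of 18 members at PWK 7 and in 6 and 7 at PWK 14 and 28. Herpud1 went from 0.32 at PWK 1 to -0.073 at PWK 14, a difference of -0.40 (adjusted p = 0.000233). Cyfip2, above 0 at PWK 1, was at -0.27 at PWK 14, a difference of -0.35 (adjusted p = 0.00374), and Gfap went from 0.052 to 2.16, a difference of 2.11 (adjusted p = 3.4e-09).

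**Figure D5:**
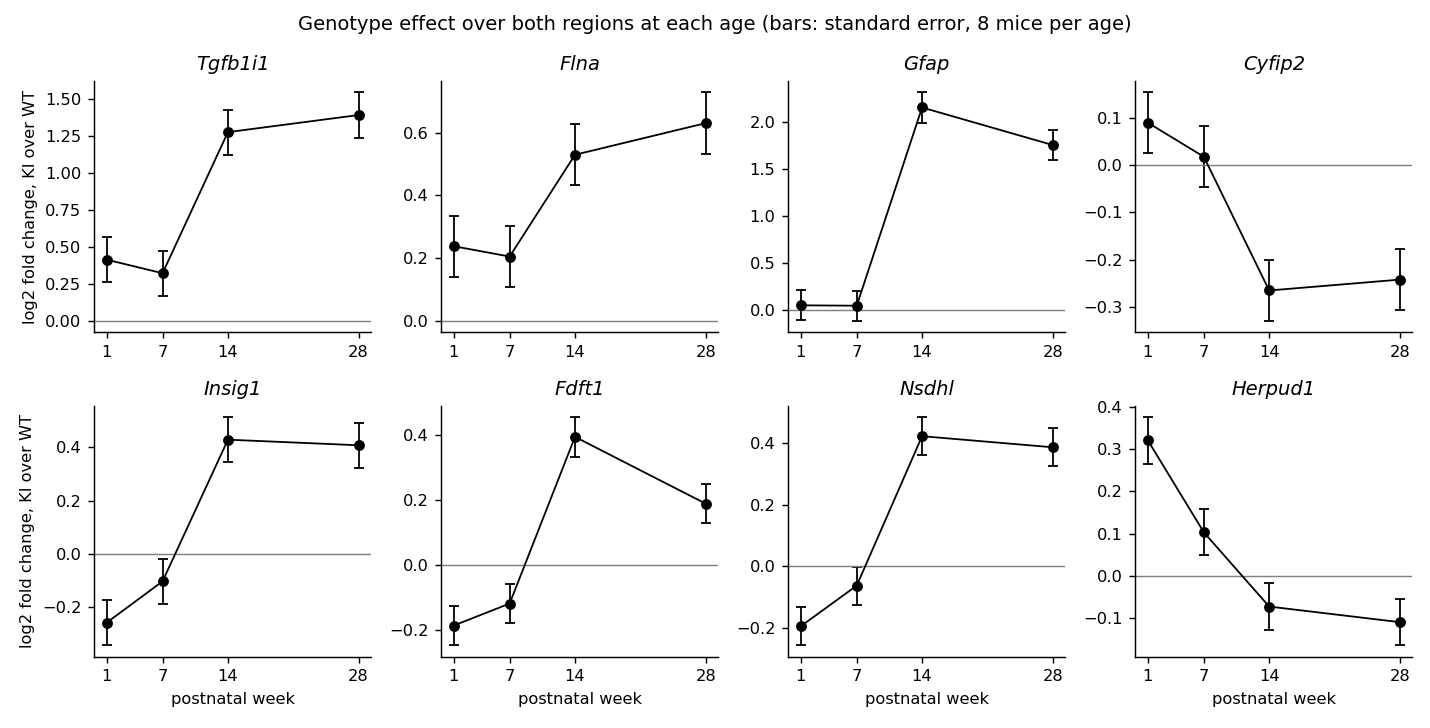
Log2 fold change of KI over WT over both regions (y axis) of 8 genes at postnatal weeks 1, 7, 14 and 28 (x axis, in weeks), from 1 fit of 64 libraries; bars are standard errors, with 8 other mice at each age and a y scale of its own in each panel. Tgfb1i1 is above 0 at all 4 ages and highest at week 28 (1.39), whereas Insig1, Fdft1 and Nsdhl are below 0 at weeks 1 and 7 and above it at weeks 14 and 28, and Herpud1 goes the opposite way.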

How the data were processed

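Bulk RNA sequencing of frontal cortex and hippocampus gave 1 table of 18432 genes and 64 libraries. The authors estimated transcript abundance with Salmon on GRCm38, imported it with tximport and normalised it with DESeq2 (submitters' notes: Salmon 0.11.2, DESeq2 1.19.11, R 3.6.0); the deposited values are normalised counts and were treated as a signal without raw reads. Their low values are multiples of a step in only 30.2 to 42.9% of cases (tolerance 0.1), so no count model was used. The mouse was a block (duplicateCorrelation, 0.14), because the 2 regions of a library number within a genotype were taken to come from 1 mouse. Same-numbered libraries of the 2 regions correlated at 0.19 on average (6 of 8 over 0.1) and differently numbered ones at -0.064. Genes with a mean of at least 1 were fitted by limma-trend (limma 3.58.1, R 4.3.3) on log2(value + 1) with Benjamini-Hochberg adjustment, per region, jointly with region as a factor, for the interaction and over all ages. Annotation was matched for 18420 gene IDs. Genes in the text are a fixed set, the 15 smallest joint p-values per direction (mean at least 20, no library at 0), calls in single regions, the 2 smallest interaction p-values, and up to 4 genes per list. Some genes that the rule names are not reported here. Members and the 39 lists were chosen with earlier results of these data known. Scripts were tested on simulated data. Pseudocount, filter, scaling, block, prior and left-out mice were varied.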

Additional observations from a re-analysis of the deposited data

Results flagged for a closer look

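Groups of 4 libraries were checked for 50 of the genes in the text and for some of the lists. In 17 of 220 such groups, 1 library lay far from the other 3 by Dixon's test at the 95% level, where chance gives about 1 group in 20. The level of the striatal markers in the cortical library of WT mouse 1 (9.59, mean log2) was among them. A single library was far below the others for Tgfb1i1 in cortex of WT mouse 1 (933), Flna in cortex of WT mouse 3 (11025), Fdft1 in cortex of WT mouse 1 (4205), Msmo1 in hippocampus of KI mouse 2 (2031), mt-Nd4l in hippocampus of WT mouse 4 (12731), Gfap in cortex of WT mouse 2 (3132), Nme2 in hippocampus of WT mouse 3 (954), Ccni in cortex of KI mouse 1 (7864), Camk2b in cortex of KI mouse 1 (34841) and Olig1 in hippocampus of KI mouse 2 (3136), in normalised counts. A library was far above the others for Cyfip1 in cortex of WT mouse 4 (2399), Hmgcs1 in hippocampus of WT mouse 4 (23259), Stard4 in hippocampus of WT mouse 1 (1696), Slc6a5 in hippocampus of KI mouse 1 (30.5), Nme2 in cortex of KI mouse 2 (2972) and Nme2 in hippocampus of KI mouse 2 (2430.1). KI mouse 2 stood out for Nme2 in both regions. Causes were not tested.

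The effect of genotype on Gm7367 differed between the regions (hippocampus minus cortex -4.53 on the log2 scale, adjusted p = 0.0229, limma). The difference rests on 4 cortical WT libraries listed at 0, and the fold change depends on the pseudocount.

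The effect of genotype over both regions differed between ages for many of the 50 genes that were checked. Other genes named in the text were not part of this check. These genes were chosen largely by their week 1 values, so the differences are not independent of the choice. Each value is the later fold change minus that of week 1, called at an adjusted p under 0.05 in limma. At PWK 14 the effect was higher for Tgfb1i1 (0.86), Hmgcs1 (0.66), Insig1 (0.69), Nsdhl (0.62), Fdft1 (0.58), Stard4 (0.70), Idi1 (0.48), Msmo1 (0.54), Sqle (0.51), Scd2 (0.23), Gfap (2.11), Slc6a5 (5.23), Mmp16 (0.48), Gm42664 (0.49) and Gm37608 (0.94). At the same age it was lower for Cyfip2 (-0.35), Herpud1 (-0.40), Ddit3 (-0.51), Hspa5 (-0.29), Pdia6 (-0.30), Dusp8 (-0.26), Fam53c (-0.21), Ppp1r12c (-0.22), Lenep (-3.80) and Neurod1 (-0.78). At PWK 28 the effect was higher for Tgfb1i1 (0.98), Flna (0.39), Hmgcs1 (0.58), Insig1 (0.67), Nsdhl (0.58), Fdft1 (0.38), Stard4 (0.68), Sqle (0.36), Scd2 (0.30), Scd1 (0.35), Jun (0.68), mt-Nd6 (0.60), Gfap (1.71), Slc6a5 (6.55), Sh2d3c (0.40), Mmp16 (0.39) and Sst (0.82). It was lower there for Cyfip2 (-0.33), Herpud1 (-0.43), Ddit3 (-0.47), Hspa5 (-0.78), Pdia6 (-0.64), Ppp1r12c (-0.24) and Neurod1 (-0.71).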

How the results depend on the processing

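For 15 counts and list medians, 41 of the recomputed values moved, most of them small counts of called genes. Over single genes and counts of list members at an unadjusted p under 0.05, 1897 recomputed values stayed the same. For genes this meant the same direction and side of the threshold, for counts a value within 1.5 times. Of the single-gene values 50 crossed into a call, 40 lost one and 1 reversed. For the joint effect the count of called genes, 1 as reported, was 12 with equal library totals, 7 with no replicate block for the mouse, 32 with the replicate number as a block across genotypes, 0 on mouse means, 3 in the fit of all 64 libraries and 1 to 14 without 1 mouse, 14 without KI mouse 4 and 2 without KI mouse 2. Genes at an unadjusted p under 0.05 numbered 1951 under the block across genotypes, against 1171. In cortex the 1 call became 0 with a pseudocount of 5, with a filter at a mean of 10 and under the block, 4 in the fit of all 64 libraries, and 0 to 1 without 1 library. In hippocampus the 2 calls became 1 with a pseudocount of 5 and with the filter at 10, 0 under the block and in the fit of all 64 libraries, and 0 to 4 without 1 library, with 625 genes at an unadjusted p under 0.05 in the fit of all 64 libraries. The 1 call between regions became 0 with a pseudocount of 5, with no replicate block, in the fit of all 64 libraries, without the 2 libraries that stood apart (an alternative chosen after seeing the data) and in 5 of 8 fits without 1 mouse (0 to 1). Among marker lists 0 to 1 list had an exact p under 0.05 without 1 mouse, the 1 without WT mouse 2. The cause of these changes was not tested. The medians of the sterol, stress response and actin lists kept their sign, and counts of calls between ages stayed within 1.5 times. Without the 2 libraries that stood apart the medians of several other lists changed sign. The cell cycle list went from -0.056 to 0.028, the immediate early list from -0.004 to 0.054 and the infantile spasm and epilepsy list from 0.012 to -0.004. Among marker lists the sign changed for the striatal (-0.229 to 0.032), ependymal (-0.176 to 0.037), meningeal (-0.033 to 0.097), oligodendrocyte precursor (-0.015 to 0.003) and hippocampal neuron lists (-0.008 to 0.009). Of single genes, Cyfip1 (-0.027 as reported) reached -0.045 to 0.002 without 1 mouse and reversed without KI mouse 2. The labels link KI and WT samples only by a number. Same-numbered libraries correlated on average at 0.11 in cortex (2 of 4 pairs over 0.1) and 0.064 in hippocampus (1 of 4). Differently numbered ones correlated at -0.036 and -0.022. The highest KI and WT pair in each region was that of number 2, at 0.24 in cortex and 0.35 in hippocampus. What an equal number stands for across genotypes was not tested. At these depths and 4 mice per genotype, a typical standard error of 0.074 (0.053 for the 12653 genes with a mean of at least 100) limits what can be called after adjustment over all genes.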
